A study of Mus musculus with 12 samples.

Results

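Intact sciatic nerve of mice lacking the transcription factors TFEB and TFE3 in Schwann cells was compared with intact nerve of control mice, using the 6 libraries that the labels call intact out of 12 in the series. The 3 dKO libraries (replicates 2, 3 and 4, labelled Tfeb/3 SC-dKO) came from mice of genotype Dhh-Cre+:Tfebflox/flox;Tfe3KO, and the 3 control libraries (replicates 1, 2 and 3) from mice of genotype Dhh-Cre-:Tfebflox/flox;Tfe3+. Both groups therefore carried floxed Tfeb. In dKO mice the floxed alleles were recombined only where Cre was active, and Dhh, whose promoter drove it, is a Schwann cell lineage gene, whereas Tfe3 was lost in every cell of the body. Tfeb should remain in cells without Cre activity, but which cells of dKO nerve these were was not measured. The nerves had not been cut themselves: they were the contralateral nerves of mice whose other sciatic nerve had been transected 5 days before, and their epineurium, the outer sheath, had been removed. The labels give no age and no sex. Polyadenylated RNA was sequenced with an Ion Torrent kit, and the 3 libraries of a group are described as biological replicates.

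TFEB and TFE3 are related basic helix-loop-helix proteins of the MiT/TFE family, together with MITF and TFEC. When nutrients are scarce or lysosomes are stressed they leave the lysosomal surface, where Rag GTPases and mTORC1 hold them, and enter the nucleus, where they bind E-boxes in the promoters of genes for lysosomal enzymes, the proton pump of the lysosome and autophagy proteins. Schwann cells wrap the large axons of the nerve in myelin, hold the small axons in unmyelinated bundles, and after injury turn into repair cells that break down their own myelin by autophagy. The comparison in intact nerve asks how the genotypes differ in nerve that was not itself cut. Loss of Tfeb in Schwann cells, loss of Tfe3 in the whole body and the presence of Cre cannot be told apart in it.

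The 6 intact libraries held between 27735102 and 35845371 counts and between 19601 and 20541 gene models with at least 10 counts. Xist, the RNA of the inactive X chromosome, had at most 16 counts in any of them, and 4 genes of the Y chromosome had between 3068 and 3707, so all 6 libraries read as male. Levels are given as counts per 1000000 (CPM) after scaling of the library sizes, and a genotype difference is the log2 of dKO over control, with its standard error (SE). One library stood apart. Control replicate 2 lay at 60.8 on the first principal component, which held 54.5% of the variance, while the other 5 libraries lay between -21.6 and -1.77. Its summed adipocyte markers were 0.163 times the mean of the other 5 libraries, its red cell markers 0.257 times, its perineurial markers 0.480 times and its endothelial markers 0.587 times, whereas its myelin genes stood at 1.18 times and its genes of non-myelinating Schwann cells at 1.48 times. Values without this library are therefore given beside the results that rest on it. What set it apart was not tested. In bulk RNA, fewer cells of a type and less RNA per cell cannot be told apart.

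Neither targeted gene was absent from dKO nerve. Tfeb (chr17:47737030-47792419, GRCm38) stood at 22.6, 23.9 and 26.9 CPM in control nerve and at 17.0, 19.5 and 17.3 CPM in dKO nerve. The groups did not overlap, and the genotype difference was -0.45 (SE 0.21, adjusted p = 0.856 in edgeR's quasi-likelihood test). Tfe3 (chrX:7762560-7775202) stood at 62.1, 60.8 and 56.7 CPM in control nerve and at 46.4, 47.4 and 43.3 CPM in dKO nerve, a difference of -0.39 (SE 0.10, unadjusted p = 0.0014, adjusted p = 0.841). Again every dKO library lay below every control library. A count over a whole gene does not show which exons were read, so it cannot show the deletion itself. The other members of the family did not separate the groups: Mitf had a difference of -0.01 (SE 0.13) and Tfec, at a low level, one of 0.09 (SE 0.39).

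Intact nerve of both genotypes carried above all the transcripts of myelinating Schwann cells. Levels between genes are compared per length, as transcripts per 1000000 (TPM). Pmp22, a protein of compact myelin, stood at 18928 ± 2504 TPM (SD, n = 3) in control and 20558 ± 2232 TPM in dKO nerve. Mbp, the myelin basic protein on the cytoplasmic face, stood at 5598 ± 840 and 5005 ± 321 TPM, and Prx, the periaxin of the outer Schwann cell membrane, at 3368 ± 303 and 3538 ± 57.5 TPM. Cadm4, an adhesion protein of Schwann cells on the axon, stood at 3152 ± 222 and 3186 ± 40.4 TPM. Among non-myelin genes of the highest 25 models were Sparc, a matrix protein (7055 and 6227 TPM), Fth1, the ferritin heavy chain (4751 and 4167 TPM), Apod, a lipid carrier of nerve (3246 and 2556 TPM), and Gsn, an actin-severing protein that fibroblasts also make (2944 ± 1262 and 3882 ± 492 TPM). Several of the 25 were short pseudogene, antisense or miRNA models whose reads may belong to a parent or host gene, and their levels per length are uncertain. Of the 25 highest models in control nerve, 23 were among the highest 25 in dKO nerve, and of the highest 100, 94 were shared.

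The 26 myelin genes together took 8.26%, 10.3% and 9.24% of the counts in the control libraries and 9.19%, 8.79% and 9.66% in the dKO libraries. The means were 9.25% ± 1.0 and 9.21% ± 0.44 (SD, n = 3), and the dKO values lay within the control range. Control replicate 2 was the highest of the 6. Sox10, the transcription factor that defines the Schwann cell lineage, stood at 455 ± 18.9 TPM in control and 527 TPM in dKO nerve, and Egr2, the driver of the myelin program, at 190 and 208 TPM. The counts were concentrated alike in both genotypes: the 10 most abundant models took between 9.73% and 11.7% of a library, and the highest 100 between 20.9% and 23.5%. Protein-coding models held 90.7% of counts on average.

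Markers of the other cells of nerve were present in both genotypes. Cfd, an adipocyte gene, was among the highest 25 models per length, at 2820 ± 2139 and 3366 ± 2117 TPM in control and dKO nerve. Dcn, a proteoglycan of fibroblasts, stood at 1102 and 1180 TPM in control and dKO nerve, and Col1a1, the main chain of collagen I, at 872 and 789 TPM. Sfrp5, a marker of perineurial cells, which form the sheath around each fascicle, stood at 1086 ± 635 and 1488 ± 231 TPM. Cldn5, the claudin of endothelial tight junctions, stood at 224 and 266 TPM, and the pericyte receptor Pdgfrb at 112 and 113 TPM. The macrophage genes Lyz2 (206 and 176 TPM) and C1qa (85.1 and 109 TPM) stood above the mast cell protease Tpsb2 (28.6 and 60.2 TPM) and the fast-muscle gene Tnnt3 (16.8 and 17.3 TPM). Adipoq, the adipocyte hormone, varied far more between libraries than between genotypes, at 246 ± 197 and 305 ± 150 TPM. For Gsn, Cfd, Sfrp5 and Adipoq, whose SD in control nerve was large, control replicate 2 was the lowest library of its group. For Apod, with an SD of 917 TPM in control nerve, it was the highest, at 4162 TPM.

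**Figure D1:**
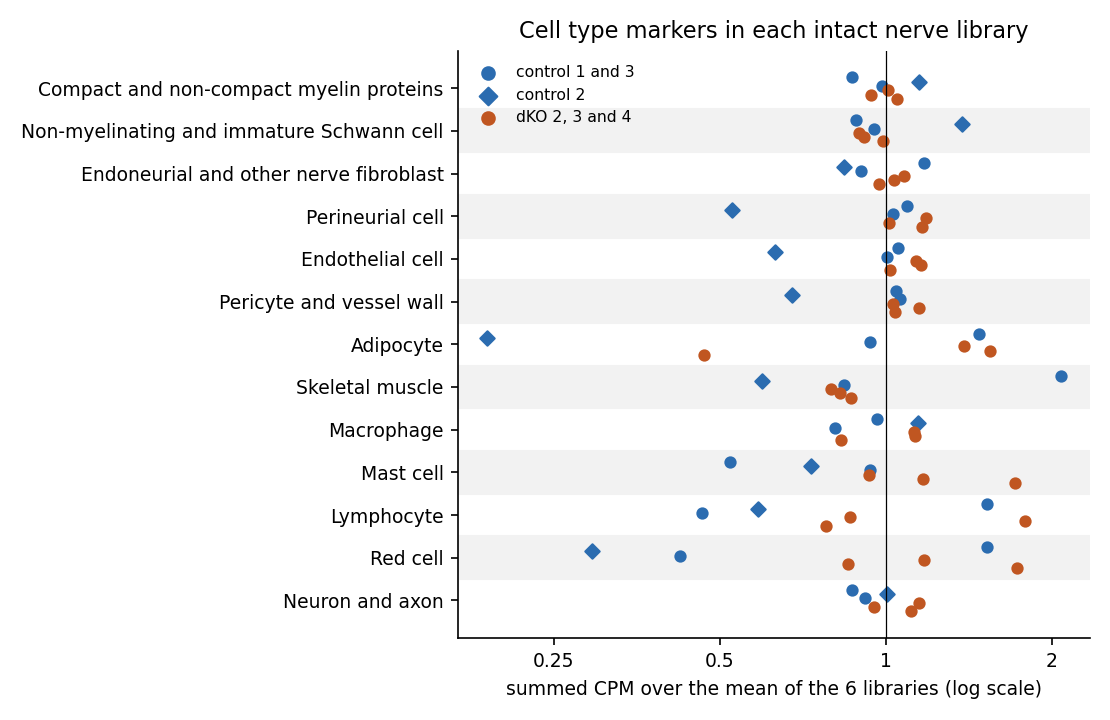
Summed CPM of each cell type's marker genes in the 6 intact libraries, divided by the mean of the 6, on a log axis; each point is 1 library. Control replicate 2 (diamond) lies far to the left for adipocyte, red cell, perineurial and endothelial markers, while the myelin sums of all 6 libraries lie near 1.

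Across all genes the genotypes were close to each other. Of 22384 gene models tested over all 12 libraries, edgeR called 0 higher (0%) and 1 lower (0.00447%) in dKO nerve at an adjusted p under 0.05, and limma-voom called 0. DESeq2 gave an adjusted p for 10230 models and called 5 higher (0.0489%) and 7 lower (0.0684%). At an unadjusted p under 0.05, edgeR found 736 models higher (3.29%) and 563 lower (2.52%). The share in either direction rose with the level of the gene. It was 3.13% under 1 CPM, 3.96% between 1 and 10 CPM, 7.30% between 10 and 100 CPM and 9.40% at 100 CPM or more. The median genotype difference was -0.01 and its median size 0.17, and 1650 models (7.37%) lay higher and 1607 (7.18%) lower in every dKO library than in every control library.

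A p that misses a threshold does not show that levels are alike, so the interval of each difference was also read. For 15402 models, 68.8% of those tested, the whole 90% interval lay within a 2-fold change in either direction, and for 11033 (49.3%) it lay within 1.5-fold. This share depended on the level of the gene. It was 96.8% of the 2329 models at a mean of 100 CPM or more and 95.1% of the 9698 between 10 and 100 CPM. Between 1 and 10 CPM it was 64.4% of 5815 models, and under 1 CPM 3.94% of 4542. For most of the low models the interval was too wide to show likeness to within 2-fold at this depth and number of libraries. Of the models under 1 CPM, 142 had an unadjusted p under 0.05, and 136 of these an estimated difference of over 2-fold. An estimated difference of over 2-fold was found for 992 models, of which 852 had a mean under 1 CPM and 207 an unadjusted p under 0.05.

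**Figure D2:**
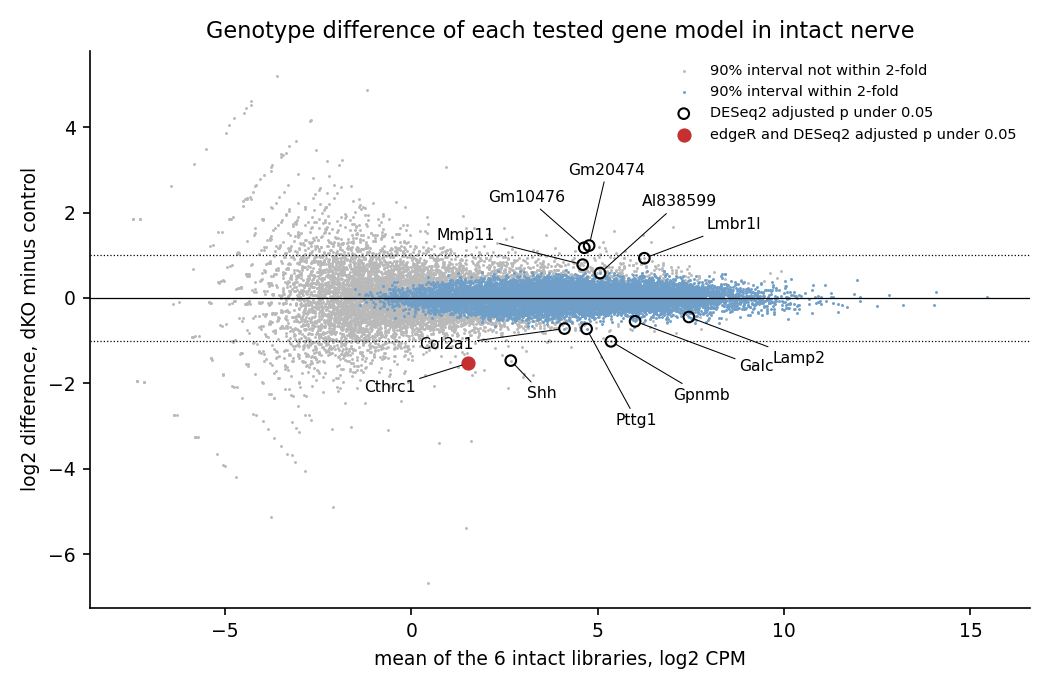
Genotype difference (log2, dKO minus control) of each tested model against its mean level (log2 CPM) in the 6 intact libraries; blue points have a 90% interval within 2-fold and dotted lines mark 2-fold. The spread narrows with level, models past the threshold in DESeq2 are ringed, and Cthrc1 (red) is the 1 model that edgeR also called.

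Distances between libraries of different genotypes and of the same genotype overlapped. The median absolute log2 CPM difference was 0.211 on average over the 9 pairs across genotypes (range 0.161 to 0.304) and 0.199 over the 6 pairs within a genotype (range 0.160 to 0.268). The excess of 0.0118 had an exact one-sided permutation p of 0.2, where 3 libraries against 3 cannot go below 0.1. Spearman correlations of the pairs ran from 0.971 to 0.991. The larger distances were those of control replicate 2, whose mean distance to the other 5 libraries was 0.267 against 0.184 to 0.212 for the others. Among 12743 models whose log2 CPM averaged 3 or more, this library was the lowest of the 6 in 29.2% and the highest in 33.6%. The excess between genotypes depended on the library left out: it was 0.0359 without control replicate 1 (exact permutation p = 0.1), 0.0274 without control replicate 3 and 0.0035 without control replicate 2 (exact permutation p = 0.4). Without dKO replicate 2 it was -0.0064, so that pairs across genotypes were then the closer ones.

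**Figure D3:**
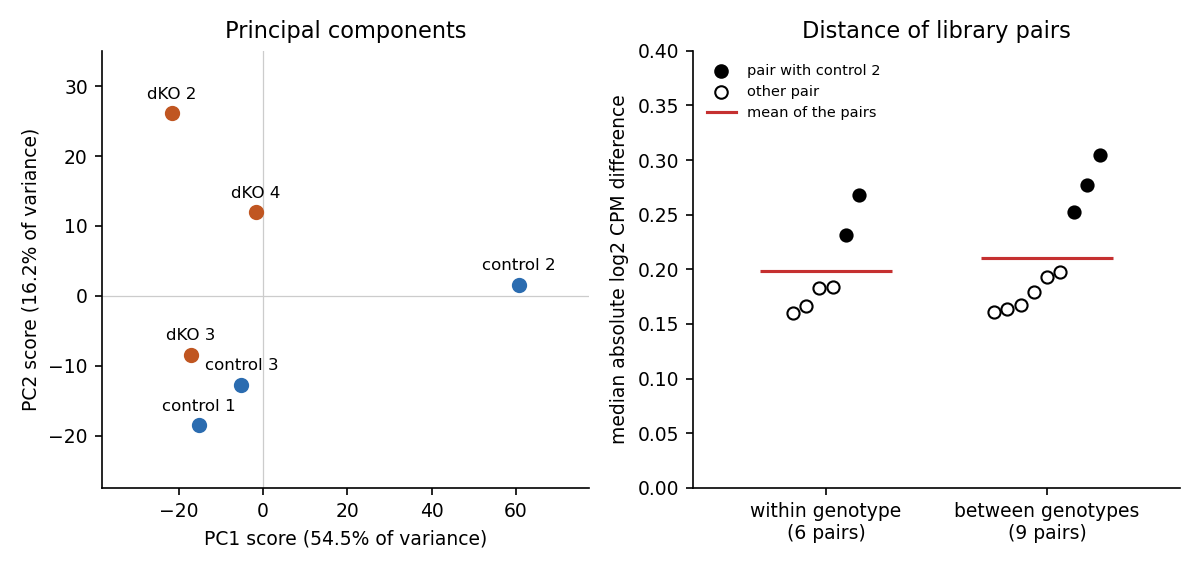
Left, scores of the 6 intact libraries on the first and second principal component; right, median absolute log2 CPM difference of each of the 15 library pairs, with the mean of the pairs as a line. Control 2 stands alone on the first component, and the 5 pairs that include it (filled) are the most distant of each kind.

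The 1 gene that passed the threshold in edgeR was Cthrc1 (chr15:39076932-39087121), which encodes a secreted protein with a collagen triple helix repeat and is in the list of repair Schwann cell genes. It stood at 3.51, 5.29 and 3.93 CPM in control nerve and at 1.80, 1.07 and 1.56 CPM in dKO nerve. Cthrc1 thus fell by 1.53 on the log2 scale (SE 0.20, adjusted p = 0.0458), with no overlap between the groups. DESeq2 called it as well (adjusted p = 9.75e-08), but limma-voom did not (adjusted p = 0.842). The edgeR call was lost when control replicate 2, control replicate 3 or any of the 3 dKO libraries was left out (5 of 6 cases, adjusted p up to 0.257), and also when only the 6 intact libraries were fitted (adjusted p = 0.685). The difference itself stayed between -1.69 and -1.33 over these 6 cases.

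DESeq2 called 6 further genes lower, of which Shh, Gpnmb and Pttg1 were called again in each of the 6 fits that left out 1 intact library. Shh (chr5:28456815-28467256), a hedgehog ligand that Schwann cells make after injury, stood at 7.06, 12.5 and 8.47 CPM in control and at 2.91, 2.81 and 4.38 CPM in dKO nerve. Every dKO value was below the lowest control value, and the difference was -1.47 (SE 0.21; DESeq2 adjusted p = 2.16e-07, edgeR adjusted p = 0.057). Gpnmb (chr6:49036546-49070929), a membrane glycoprotein of lysosomes and melanosomes and a known gene of the MiT/TFE factors, stood at 53.6, 57.5 and 53.3 CPM against 34.4, 25.7 and 21.1 CPM. The 3 control values were close together and well above the dKO values, with a difference of -1.02 (SE 0.18; DESeq2 adjusted p = 0.000296, edgeR adjusted p = 0.254). Pttg1, the securin of dividing cells, stood at 36.5, 28.6 and 32.1 CPM against 21.7, 18.1 and 19.1 CPM, a difference of -0.72 (SE 0.13; DESeq2 adjusted p = 0.000249, edgeR adjusted p = 0.254).

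The other 3 genes that DESeq2 called lower were Galc, Lamp2 and Col2a1. Galc (chr12:98202294-98259459), the lysosomal enzyme that degrades the myelin lipid galactosylceramide, stood at 66.2, 88.6 and 73.7 CPM in control nerve and at 52.6, 51.4 and 52.3 CPM in dKO nerve. The difference was -0.55 (SE 0.11; DESeq2 adjusted p = 0.0399, edgeR adjusted p = 0.529). Lamp2 (chrX:38401357-38456454), a glycoprotein of the lysosomal membrane, stood at 205, 216 and 182 CPM against 151, 145 and 147 CPM, with a difference of -0.45 (SE 0.10; DESeq2 adjusted p = 0.0459, edgeR adjusted p = 0.841). For both genes the dKO libraries were nearly equal and all below the controls. Col2a1, a cartilage collagen, stood at 20.4, 25.5 and 18.6 CPM against 10.9, 15.3 and 12.9 CPM (DESeq2 adjusted p = 0.0488). These 3 calls were less steady: without control replicate 2 the DESeq2 adjusted p was 0.236 for Galc, 0.368 for Lamp2 and 0.504 for Col2a1.

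Of the 5 models that DESeq2 called higher, Lmbr1l (chr15:98903917-98918231), which encodes a lipocalin-interacting membrane receptor, stood at 50.1, 58.4 and 48.8 CPM in control and at 104, 96.6 and 98.9 CPM in dKO nerve. Its difference was 0.93 (SE 0.15; DESeq2 adjusted p = 0.000274, edgeR adjusted p = 0.118), the lowest dKO library lay far above the highest control, and it was called in all 6 DESeq2 fits that left out a library. Gm20474 and Gm10476 are predicted models with similar values in every library. Whether they share reads was not tested, so they are not taken as 2 separate observations. Gm20474 stood at 15.8, 12.7 and 20.4 CPM against 41.0, 38 and 35.7 CPM, a difference of 1.23 (SE 0.17; DESeq2 adjusted p = 1.04e-07, edgeR adjusted p = 0.0538). Mmp11, a matrix metalloproteinase of stromal cells, stood at 22.9, 15 and 15.6 CPM against 32.7, 30.2 and 29.0 CPM (DESeq2 adjusted p = 0.0399). The long non-coding RNA AI838599 had a difference of 0.58. Without control replicate 2, Mmp11 had a DESeq2 adjusted p of 0.349 and AI838599 one of 0.490.

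**Figure D4:**
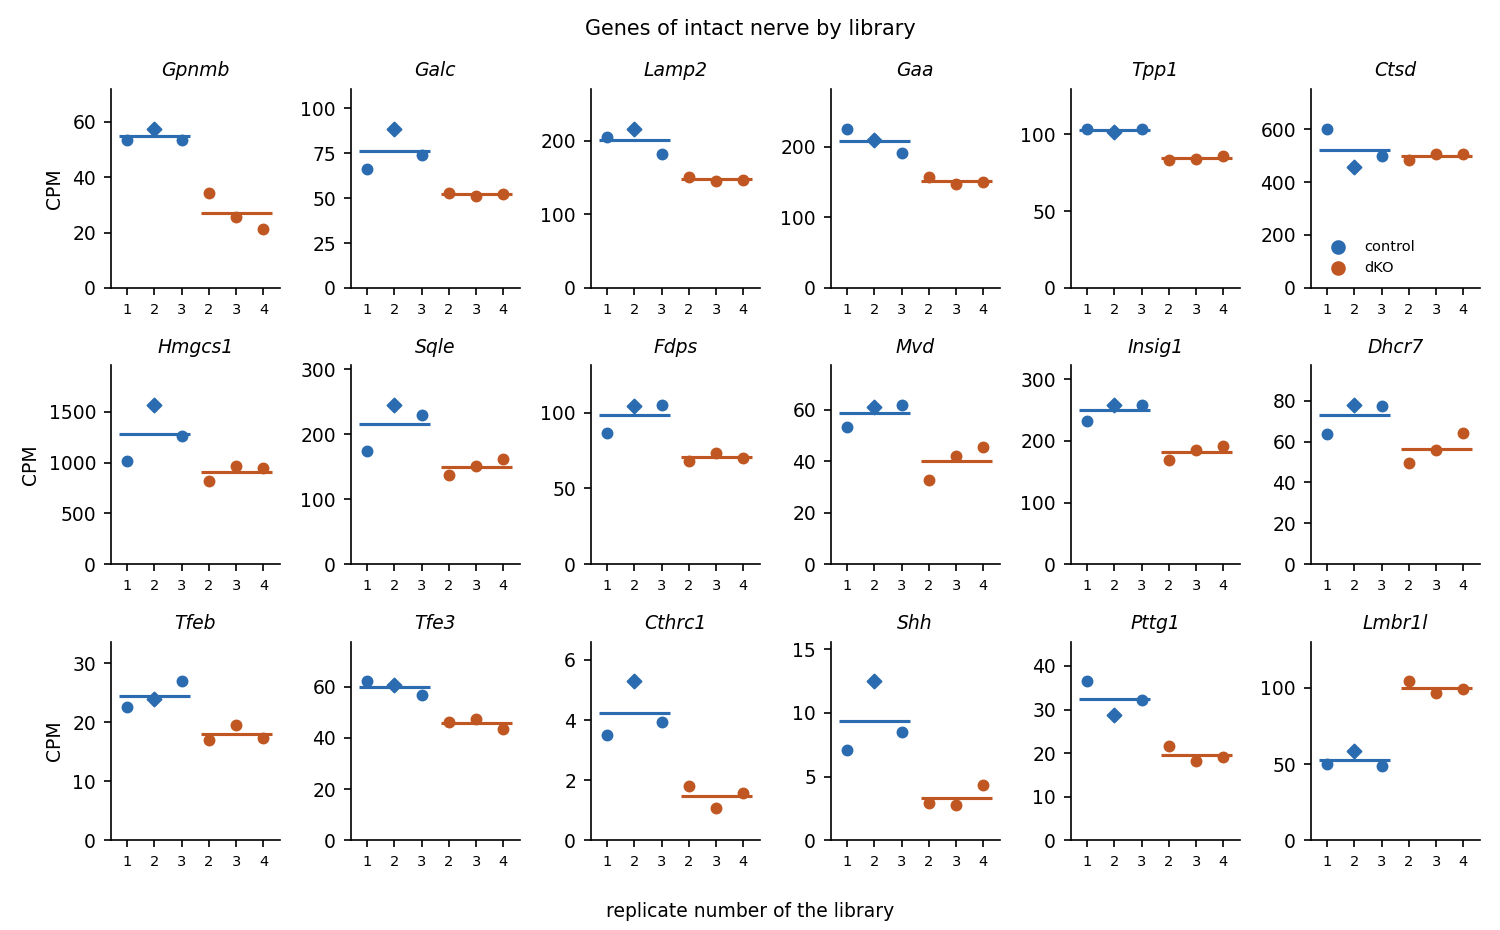
CPM of 18 genes in each intact library, with the library's replicate number on the horizontal axis, the group mean as a line and control 2 as a diamond. Gpnmb, Galc, Lamp2, Gaa and Tpp1 separate the genotypes without overlap while Ctsd does not, the cholesterol genes of the middle row lie lower in mean in dKO nerve, with 0 past the threshold, and Lmbr1l stands higher in each dKO library.

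Genes for lysosomes, the best known targets of TFEB and TFE3, differed little in level, with a minority of members lower at an unadjusted p under 0.05. Of 40 lysosomal enzymes, 0 passed the threshold in edgeR, 7 were lower and 0 higher at an unadjusted p under 0.05, and the median difference was -0.05. All 40 had a 90% interval within 2-fold, and 36 within 1.5-fold. The 7 were Gaa, Galc, Asah1, Tpp1, Aga, Neu1 and Ctsz, and each lay lower in every dKO library than in any control. Of all 40 enzymes, 8 lay lower and 0 higher without overlap, where 7.18% of all models lay lower and 7.37% higher. A negative difference was found for 29 of the 40, beside 50.8% of all models, and for 30 without control replicate 2, beside 47.2%. Gaa, the acid glucosidase that degrades glycogen, stood at 226, 210 and 191 CPM against 158, 148 and 150 CPM, with a difference of -0.46 (SE 0.11). Tpp1, a tripeptidyl peptidase, stood at 104, 101 and 103 CPM against 83.1, 84.1 and 86.1 CPM, a difference of -0.28 (SE 0.08) between 2 tight groups. Asah1, the acid ceramidase, stood at 127, 153 and 129 CPM against 107, 103 and 110 CPM (difference -0.35, SE 0.11). By contrast the most abundant enzyme genes overlapped between genotypes: Psap, the precursor of the saposins, had a difference of 0.05, Ctsb one of -0.06 and Ctsd, the main aspartic protease, stood at 601, 457 and 500 CPM against 482, 506 and 506 CPM (difference -0.06, SE 0.11). Without control replicate 2 the count of enzymes was again 7 lower and 0 higher, where 1.37% of all models were lower and 2.17% higher at an unadjusted p under 0.05.

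Of 25 lysosomal membrane proteins, 3 were lower, Lamp2 and Npc2 among them, and 1 higher (Sidt2) at an unadjusted p under 0.05, with a median difference of -0.01 and all 25 within 2-fold. There were 2 in each direction without control replicate 2. Of the 25, 13 had a negative difference, and 6 lay lower and 2 higher without overlap. Npc2, which hands cholesterol out of the lysosome although it is itself a soluble protein, stood at 275, 294 and 297 CPM against 215, 241 and 221 CPM (difference -0.36, SE 0.10). Sidt2, a lysosomal nucleic acid transporter, stood at 295, 274 and 279 CPM against 361, 319 and 369 CPM (difference 0.31, SE 0.11), so the list did not move one way. The 18 genes of the V-ATPase, the proton pump, had a median of -0.15, and 2 of them, Atp6v1a and Atp6ap2, were lower at an unadjusted p under 0.05. The median was -0.09 and 1 member was lower without control replicate 2. Of the 18, 14 had a negative difference, or 13 without that library, and 6 lay lower and 0 higher without overlap. Atp6v1a, the catalytic subunit, stood at 55.5, 54.4 and 54.2 CPM against 37.4, 44.6 and 45.0 CPM (difference -0.37, SE 0.12). Summed over the list the pump genes held 1388, 1420 and 1365 CPM in control nerve, against 1325, 1279 and 1326 CPM in dKO nerve, with no overlap but a gap of a few percent. Of 42 autophagy genes, 2 were lower (Optn, a cargo receptor, and Atg5, a conjugation factor) and 0 higher, with a median of -0.02 and all 42 within 2-fold. Of 24 genes of the folliculin, Rag GTPase and mTORC1 branch, 2 were lower (Mtor and Rragc) and 0 higher, with a median of -0.10. Without control replicate 2 each of these lists had 0 lower and 1 higher, with medians of 0.01 and -0.06. For all tested models the share lower at an unadjusted p under 0.05 was 2.52%, and the share higher 3.29%. These 2 shares are not matched to the lists for the level of the genes. The shares lower and higher without overlap were 7.18% and 7.37%.

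The E-box that the MiT/TFE factors bind was then looked for in the RefSeq promoter windows (GRCm38.p6, from 250 bases before to 50 after each start). The motif searched was TCACGTGA, which reads the same on both strands and contains the shorter CACGTG. It stood in 320 of 32851 windows, 0.974%. Of the lysosomal genes with a window, 3 of 32 enzymes, 4 of 20 membrane proteins and 3 of 12 V-ATPase genes held it. The windows of the 3 with the highest mean level, the enzyme genes Ctsd and Ctsa and the pump gene Atp6v0d1, are shown from 150 bases before to 20 after the start, 5′ to 3′ on the strand of the gene, with the motif in capitals. They lie at chr7:142387808-142387977 (minus strand), chr2:164833623-164833792 (plus strand) and chr8:105566045-105566214 (minus strand).
Ctsd: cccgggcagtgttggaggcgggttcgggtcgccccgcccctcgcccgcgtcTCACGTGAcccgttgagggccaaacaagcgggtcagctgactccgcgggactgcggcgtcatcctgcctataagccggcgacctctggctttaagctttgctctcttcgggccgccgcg
Ctsa: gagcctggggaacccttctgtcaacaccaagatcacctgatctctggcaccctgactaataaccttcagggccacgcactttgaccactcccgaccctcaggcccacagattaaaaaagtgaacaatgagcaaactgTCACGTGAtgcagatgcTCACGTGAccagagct
Atp6v0d1: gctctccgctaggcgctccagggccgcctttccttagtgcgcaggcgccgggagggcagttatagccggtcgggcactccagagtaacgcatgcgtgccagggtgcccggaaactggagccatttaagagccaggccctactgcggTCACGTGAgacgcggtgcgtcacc
None of these 3 genes separated the genotypes. Ctsa, a carboxypeptidase whose window holds the motif 2 times, stood at 277, 255 and 249 CPM against 266, 253 and 267 CPM (difference 0.01, SE 0.10). Atp6v0d1, of the membrane part of the pump, stood at 106, 100 and 93.1 CPM against 94.5, 101 and 92.2 CPM (difference -0.06, SE 0.10). Of the 10 lysosomal genes with the motif, Atp6v1a had an unadjusted p under 0.05. The windows of Gpnmb, Galc, Lamp2, Tpp1 and Npc2 do not hold these letters, and that of Gaa holds the shorter CACGTG. That a window lacks a motif says nothing about binding elsewhere in the gene.

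All tested models with the motif were then counted. Of 242 tested models with TCACGTGA in the window, 0 passed the threshold in edgeR, and at an unadjusted p under 0.05 6 (2.48%) were higher and 4 (1.65%) lower. Over all 13862 tested models with a window these shares were 3.68% and 2.55%. The median difference was -0.03 with the motif, and 222 of the 242 had an interval within 2-fold. Without control replicate 2 the median was 0.02. The shorter CACGTG, found in 7.15% of windows, gave 41 higher and 46 lower of 1447 models with a median of -0.03, and the 10-base CLEAR consensus (0.326% of windows) gave 1 higher and 1 lower of 84 models with a median of -0.04.

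**Figure D5:**
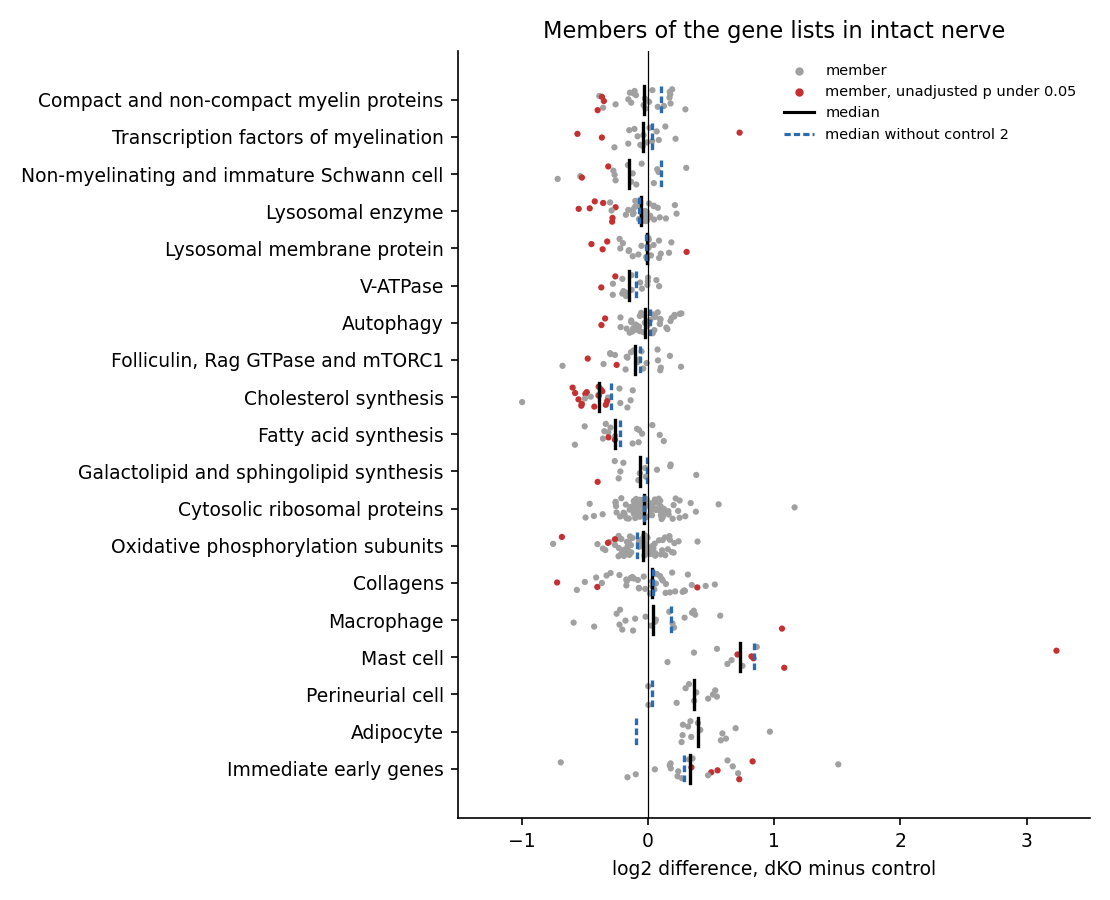
Genotype difference (log2, dKO minus control) of each tested member of 19 gene lists; red points have an unadjusted p under 0.05, the black line is the list's median and the dashed blue line the median without control 2. Cholesterol genes all lie left of 0 and mast cell genes right of it, and the median of each list stays on its side without control 2. The adipocyte and perineurial medians move to near 0 without control 2.

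Genes of cholesterol synthesis were lower in estimate throughout. This pathway supplies the myelin membrane and is driven by the factor SREBP2. All 24 of its genes had a negative difference, where 50.8% of all tested models did, and the median was -0.39. None of the 24 passed the threshold in edgeR, and 14 were lower at an unadjusted p under 0.05, beside 2.52% of all models. Of the 24, 13 lay lower in every dKO library than in every control, as 7.18% of all models did. Sqle, the squalene epoxidase, stood at 174, 245 and 229 CPM in control nerve and at 138, 151 and 162 CPM in dKO nerve (difference -0.53, SE 0.13, unadjusted p = 0.000985, edgeR adjusted p = 0.841). Fdps, which makes farnesyl diphosphate, stood at 86.8, 104 and 105 CPM against 68.0, 73.4 and 70.3 CPM (difference -0.48). In both genes control replicate 1 lay nearest to the dKO libraries. Hmgcs1, which makes HMG-CoA, stood at 1011, 1566 and 1260 CPM against 815, 964 and 945 CPM (difference -0.49, SE 0.19).

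The late enzymes Cyp51 (difference -0.60), Sc4mol (-0.52) and Dhcr7 (-0.37) and the mevalonate enzyme Mvd (-0.55) were among the 14. Insig1, a regulator of the pathway in the endoplasmic reticulum, with a difference of -0.45 (unadjusted p = 0.309), was not, and Srebf2, which encodes SREBP2, had a difference of 0.03. The summed level of the list was 4774, 6430 and 5889 CPM in control nerve, against 3880, 4511 and 4620 CPM in dKO nerve. Control replicate 2 was the highest of the 6, at 1.36 times the mean of the other 5. Without it all 24 differences were again negative, where 47.2% of all models were, but the median was -0.29. An unadjusted p under 0.05 was then found for 7 members rather than 14, where the share of all models lower was 1.37% rather than 2.52%. Of the 24 intervals 22 lay within 2-fold and 8 within 1.5-fold. Fatty acid synthesis genes had a smaller median (-0.26), with 15 of 18 negative and 2 lower at an unadjusted p under 0.05 (Hsd17b12 and Ptplad1). Without control replicate 1 that median was -0.15. Galactolipid and sphingolipid genes stood at a median of -0.06, or -0.0036 without control replicate 2.

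Genes of the Schwann cell itself differed little. Of 26 myelin genes 0 passed the threshold, and 25 had an interval within 2-fold. At an unadjusted p under 0.05, 3 (Gldn, Ugt8a and Mpp6) were lower, beside 2.52% of all models, and 0 higher, beside 3.29%. The median was -0.03 with all libraries and 0.11 without control replicate 2, where 1 was higher and 0 lower, beside 2.17% and 1.37% of all models. Among 18 transcription factors of myelination the median was -0.04, or 0.03 without that library. Pou3f1, a factor of the promyelinating stage, stood at 14.7, 14.3 and 12.5 CPM against 7.85, 9.94 and 10.4 CPM (difference -0.56, SE 0.16), and Nfatc4 was higher (difference 0.73). Erbb2, a subunit of the neuregulin receptor, stood at 104, 107 and 107 CPM against 134, 136 and 153 CPM (difference 0.41, SE 0.12), without overlap. The list of non-myelinating Schwann cells had a median of -0.14, or 0.10 without control replicate 2. Its member Ngfr, the p75 neurotrophin receptor, stood at 75.0, 69.5 and 85.7 CPM against 44.3, 48.4 and 67.6 CPM (difference -0.52, SE 0.17, unadjusted p = 0.0085). All dKO values of Ngfr were below the controls, but dKO replicate 4 was close to them.

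Of 24 genes of repair Schwann cells, Cthrc1 passed the threshold. Cthrc1, Shh and Ngfr were the 3 with an unadjusted p under 0.05, all lower, beside 2.52% of all models lower. Without overlap 4 of the 24 lay lower and 1 higher, beside 7.18% and 7.37% of all models. The median of the list was 0.01, or 0.12 without control replicate 2. Jun, the factor that drives the repair state, stood at 75.9, 53.9 and 68.6 CPM against 74.7, 70.3 and 61.3 CPM (difference 0.06, SE 0.13), with overlap. Lgals3 had a difference of 0.15. Several repair genes were at the edge of detection in intact nerve: Olig1 had at most 0.268 CPM in any library, and Gdnf and Artn under 1 CPM in all. In the hedgehog list, Dhh, the ligand of intact Schwann cells and the source of the Cre promoter, stood at 315, 428 and 375 CPM against 442, 470 and 492 CPM (difference 0.33, SE 0.14, edgeR adjusted p = 0.85). Shh was lower and Dhh higher without overlap, and the hedgehog targets Gli1 (difference 0.43) and Ptch1 (-0.12) overlapped between genotypes.

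Cells other than Schwann cells gave lists whose medians mostly moved with the library left out, in several lists with control replicate 2. Perineurial markers had a median of 0.37 with 0 of 11 negative, and 0.04 with 3 negative without that library. Adipocyte markers had a median of 0.40 with 0 of 13 negative, and -0.09 with 8 negative without it. Endothelial markers stood at 0.31 and 0.12, pericyte markers at 0.17 and 0.01, and fibroblast markers at 0.13 and 0.07. None of these members passed the threshold. Lum, a fibroblast proteoglycan, stood at 298, 353 and 167 CPM against 182, 156 and 159 CPM (difference -0.72, SE 0.21), with control replicate 3 inside the dKO range. The 22 macrophage genes had a median of 0.04, or 0.18 without that library, with 1 higher (Ms4a7, under 4 CPM throughout). Lymphocyte markers stood at 0.45 and 0.37 and red cell markers at 0.72 and 0.40, with 0 members at an unadjusted p under 0.05. Other libraries moved these medians too. Without control replicate 1 the median was 1.02 for adipocyte, 0.65 for perineurial, 0.24 for fibroblast and 1.75 for red cell markers. Without control replicate 3 it was 0.21 for lymphocyte markers.

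Mast cell genes were higher in estimate in both settings. All 12 were higher in estimate with and without control replicate 2, with a median of 0.73 and 0.84, where 50.8% and 47.2% of all models were lower in estimate. An unadjusted p under 0.05 was found for 5 of the 12, or 3 without that library, beside 3.29% and 2.17% of all models higher, while 0 passed the threshold. Tpsb2, a tryptase, stood at 10.9, 14.9 and 24.6 CPM against 21.9, 33.4 and 51.3 CPM (difference 1.08, SE 0.39), with overlap between control replicate 3 and dKO replicate 2. Kit, the receptor that mast cells need, stood at 3.62, 4.34 and 4.81 CPM against 11.6, 5.73 and 5.33 CPM, so its difference rested on dKO replicate 2. Hdc, which makes histamine, had a difference of 0.71 without overlap. Summed, the list held 48.3, 67.9 and 86.6 CPM in control nerve, against 86.3, 108 and 159 CPM in dKO nerve. Of the 12 intervals 1 lay within 2-fold. Muscle genes, by contrast, were low, and high in control replicate 1 alone: their sum was 89.1 CPM there and between 25.6 and 37.2 CPM in the other 5 libraries.

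Immediate early genes, which respond within minutes to handling and stress, had a median of 0.34. It was 0.29 without control replicate 2 and 0.16 without dKO replicate 2. Of 22, 0 passed the threshold and 5 were higher at an unadjusted p under 0.05, beside 3.29% of all models, and 2 without control replicate 2, beside 2.17%. Egr1 stood at 19.8, 15 and 18.4 CPM against 49.9, 21.4 and 23.4 CPM (difference 0.83), and Zfp36 at 29.6, 21.9 and 33.2 CPM against 66.0, 39.2 and 34.8 CPM (difference 0.72). In both genes dKO replicate 2 was far above the other 5 libraries. Fosb stood at 12.5 CPM in that library and under 4 CPM in all others. Of 19 circadian genes 3 were higher (Cry2 0.34, Per2 0.83 and Nr1d1 0.33) and 0 lower at an unadjusted p under 0.05, and 2 higher without control replicate 2. The labels do not give the hour of collection.

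Groups of genes that every cell uses were close in level. Of 83 cytosolic ribosomal protein genes 0 had an unadjusted p under 0.05, the median was -0.03 and 78 intervals lay within 2-fold. Of 82 subunits of oxidative phosphorylation 3 were lower (Atp5g1, Atp5o and Cox7b), the median was -0.04 and 80 lay within 2-fold. A negative difference was found for 57 of the 82, beside 50.8% of all models. Without overlap 10 lay lower and 2 higher, beside 7.18% and 7.37%. Without control replicate 2, 1 was lower at an unadjusted p under 0.05, the median was -0.09 and 60 were negative, beside 47.2% of all models. Atp5g1, which encodes the c-ring of the ATP synthase, stood at 28.1, 29.4 and 27.7 CPM against 16.5, 19.6 and 17.0 CPM (difference -0.68, SE 0.17). Cell division genes, low in this tissue, had a median of -0.16 (-0.06 without control replicate 1) with 3 of 30 lower (Cdk1, Ccna2 and Prc1). Of 43 collagens, Col2a1 and Col5a2 were lower and Col5a3 higher at an unadjusted p under 0.05. Col5a3 stood at 862, 921 and 942 CPM against 1279, 1075 and 1223 CPM (difference 0.39, SE 0.10), with a clear gap between the groups. Genes of the node of Ranvier (median -0.08), the basal lamina (-0.04), glycolysis (0.07), the integrated stress response (0.12) and complement and MHC class II (0.17) had at most 1 member in either direction at an unadjusted p under 0.05. Without control replicate 2 the medians of the node and basal lamina genes were 0.11 and 0.05, that of glycolysis was 0.02, and 3 stress response genes were higher. Over the 39 lists, 831 of 869 distinct genes were tested, and 655 had an interval within 2-fold. Of the 831, 24 were higher and 56 lower at an unadjusted p under 0.05, beside 3.29% and 2.52% of all tested models. These shares are not matched for the level of the genes. In either direction, 3.13% of models under 1 CPM had such a p, 7.30% between 10 and 100 CPM and 9.40% at 100 CPM or more. Genes of cholesterol synthesis made up 14 of the 56.

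The 1299 models with an unadjusted p under 0.05 were followed without control replicate 2. All 1299 kept their sign, and 546 kept an unadjusted p under 0.05, of 815 models that had one in that fit. The models were chosen by their p in a fit that shares all other libraries with this one. Kept signs are therefore no independent check of the differences. Among well measured genes outside the lists that separated the groups with the smallest p were Ahdc1 (0.50), Rabac1 (0.44), Pcgf2 (0.47), Trip10 (0.56) and Cblb (0.79), all higher, and Megf10 (-0.83), an engulfment receptor, and Kcnj10 (-1.24), a potassium channel of glia, both lower. Kcnj10 stood at 10.5, 16.4 and 8.61 CPM against 5.78, 3.63 and 5.57 CPM. None of these passed the threshold in edgeR.

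Models near the targeted genes were counted as well. Within 2 Mb of Tfeb, 5 of 73 tested models were higher and 1 lower at an unadjusted p under 0.05 (8.22%), and within 2 Mb of Tfe3, 2 of 66 were higher and 1 lower (4.55%), beside 5.80% of all models. Klhdc3 (0.41), Ccnd3 (0.64) and AI661453 (0.88) near Tfeb, and Wdr45 (0.40), Clcn5 (-0.55) and Cybb (0.47) near Tfe3, had the smallest p. Around Dhh, whose promoter drives the Cre, a window of 0.3 Mb chosen after the values were seen held 20 other tested models, of which 6 were higher and 0 lower (30%): Cacnb3, Ddx23, Rnd1, Prkag1, Rhebl1 and Lmbr1l. Lmbr1l lies 5.38 kb from Dhh, and Rhebl1 overlaps it. The site at which the Cre transgene was inserted is not given by the labels.

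The genotype differences of intact nerve were last set beside those at 5 days after transection, by the test of the difference between both differences. That test called 650 of 22384 models (2.9%), and 7 of the named genes. Gpnmb differed more at 5 days, at -3.05 (SE 0.18) against -1.02 in intact nerve. Dhh differed by 1.88 (SE 0.15) against 0.33, and Col5a3 by 1.20 (SE 0.10) against 0.39. Cthrc1 and Shh, at 70.0 and 311 CPM in injured control nerve, had differences of 0.22 and -0.34 there, smaller than the -1.53 and -1.47 of intact nerve, and the difference of Col2a1 was -0.72 in intact nerve and 0.83 at 5 days. That of Kcnj10 was likewise of opposite sign, at -1.24 and 0.58. Galc (-0.76 at 5 days), Lamp2 (-0.57), Pttg1 (-0.65), Lmbr1l (1.07) and Gm20474 (1.21) did not pass this test, with adjusted p from 0.549 for Galc to 0.982 for Gm20474. All 3 injured dKO libraries, but 1 of the 3 injured controls, showed reads on far more olfactory receptor genes than the intact libraries did (174 to 380 against 53.4 to 75.9 models at equal depth). With a term for that library set, 4 of the 7 kept their call.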

How the data were processed

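Per the labels, polyadenylated RNA of mouse sciatic nerve was made into libraries with the Ion Total RNA-Seq Kit v2. The submitters' processing notes name DESeq2, R 4.2.1 and the build mm10. Details of the aligner, counter, strand setting and annotation were not given in the sources used here. Deposited by the authors were whole-number counts per gene model for 12 libraries and, as a second table, a normalized signal (the counts divided by 1 size factor per library), used here only in an alternative. All per-sample columns were mapped (0 unmapped). Of 38087 models, 278 symbols stood on several lines. No mitochondrially encoded model is in the table analysed here. A few genes are not reported here by name.

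The counts were tested with edgeR 4.0.16 (R 4.3.3): filterByExpr over the 4 groups (minimum count 10), TMM scaling, 1 robust quasi-likelihood fit of group means to all 12 libraries, and the contrast of dKO intact minus control intact. P-values were adjusted over 22384 models by Benjamini-Hochberg, with a threshold of 0.05. An adjusted p is edgeR's unless another tool is named. Likeness means that the 90% interval of the difference lies within 2-fold or 1.5-fold. Library distances used a pseudocount of 0.5 CPM and an exact permutation test over libraries. TPM was computed from exon lengths and positions of GENCODE M21, matched by symbol (93.6% of tested models, 97.5% of counts). No set test was used: lists are described by counts and medians.

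Genes were named by a rule: the MiT/TFE family and Dhh, each model called by edgeR or DESeq2 1.42.0, the 10 higher and 10 lower models of smallest p whose log2 CPM averaged 1 or more and whose groups did not overlap, the 25 highest per length, list members by level or p, the most variable models, and neighbours of Tfeb and Tfe3. The comparison, the lists and this rule were chosen with earlier results of these data known. Alternatives were DESeq2, limma-voom and limma-trend (limma 3.58.1, the latter on log2 of the deposited signal plus 1), other scaling factors, no or a stricter filter (1 CPM in 3 libraries), the 6 intact libraries only, a minimum change, a replicate block and leaving out each library. Added after seeing the data were a library set term and DESeq2 fits without each intact library. Every pair of replicates differed beyond counting noise. Scripts were tested on simulated data.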

Additional observations from a re-analysis of the deposited data

Results flagged for a closer look

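For 7 of the named genes the genotype difference in intact nerve differed from that at 5 days after transection by edgeR's test of the difference between both. Given as the log2 genotype difference at 5 days minus that in intact nerve, the values were 1.55 for Dhh, 1.75 for Cthrc1, 1.13 for Shh, -2.04 for Gpnmb, 1.55 for Col2a1, 0.81 for Col5a3 and 1.82 for Kcnj10. All 3 injured dKO libraries and 1 injured control library formed a set with more olfactory receptor reads, and 0 intact libraries belonged to it, so at 5 days genotype and library set overlap. With a term for this set, estimated through that 1 control library and added after seeing the data, the adjusted p was 0.0016 for Dhh, 0.012 for Cthrc1, 0.0042 for Gpnmb and 0.0043 for Col2a1. It was 0.21 for Shh, 0.068 for Col5a3 and 0.11 for Kcnj10, which lost the call, while their values in that fit were 1.21, 0.78 and 2.12, close to or above those without the term.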

How the results depend on the processing

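The count of models higher in dKO intact nerve, 0 in edgeR, was 1 with DESeq2 size factors, 1 with upper-quartile factors, 3 with no low-count filter, 5 in DESeq2, and 0 to 2 when each library was left out. The count of models lower, 1 in edgeR, was 2 with no filter and 7 in DESeq2. It was 0 with a stricter filter, the 6 intact libraries only, the replicate block, limma-voom, the authors' normalized signal in limma-trend or a minimum change of 1.5-fold, and 0 to 2 when a library was left out. Of list members, 1 was called, against 2 with no filter, 5 in DESeq2, 0 with a stricter filter, the intact libraries only, the replicate block, limma-voom or the normalized signal, and 0 to 2 with a library left out. DESeq2 itself called 3 to 35 higher and 5 to 25 lower with a library left out, with 35 and 25 without control replicate 1. The median difference of models with TCACGTGA in the promoter ran from -0.078 to 0.020 with a library left out. Among named genes whose difference differed between intact nerve and 5 days, 7 were called, and 4 with the library set term. The difference of Mitf, -0.01, became 0.12 without control replicate 2 and 0.023 without dKO replicate 3 (range -0.092 to 0.12 with a library left out), and that of Tfec, 0.09, became -0.021 under the replicate block and -0.19 without control replicate 1 (range -0.19 to 0.29). The cause of these changes was not tested.

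Replicate numbers 2 and 3 occur in both genotypes, and the labels do not say whether they mark pairs. The correlation of the deviations was -0.19 for number 2 and 0.11 for number 3. For libraries of unlike number it ran from -0.33 to 0.36, so these values cannot tell whether the libraries are paired. The block ended the call of Cthrc1 (adjusted p = 0.295). The excess of library distance between genotypes, 0.0118, ran from -0.0064 to 0.0359 with a library left out. The count of models alike within 2-fold stayed between 14277 and 15325 with a library left out and was 14454 with the block. The share of tested models, 68.8% in the main fit, depended on the filter, which ran over all 4 groups. It was 79.0% (16002 models) when only the 6 intact libraries were filtered and fitted. With the stricter filter it was 79.1% (15353 models), and with no filter 46.3% (15373 models). A planned value of the myelin share without mitochondrially encoded models was not run, since none is in the table analysed here. With 3 libraries a group, 3.94% of models under 1 CPM could be placed within 2-fold.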

Other observations

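The genes that varied most over the 6 intact libraries did not follow genotype. Them5, a thioesterase gene, stood at 38.9, 21.4, 15, 20.4 and 19.4 CPM in 5 libraries and at 0.0366 CPM in control replicate 1. Xlr3b, an X-linked gene of the Xlr family, stood at 9.40, 19.2 and 16.3 CPM in control nerve and at 0.0766, 11.4 and 1.15 CPM in dKO nerve. Mup10, a major urinary protein gene whose near-identical family copies share reads, stood at 42.2, 1.07 and 38.4 CPM against 6.39, 43.6 and 3.73 CPM, and the other Mup models among the most variable had control replicate 2 as their lowest library too. Comp, a cartilage and fibroblast matrix gene, stood at 1.28 CPM in control replicate 2 and between 42.3 and 76.1 CPM in the other 5. Col6a5, another collagen VI chain, ranged from 2.89 CPM in control replicate 2 to 175 CPM in control replicate 1. The smallest edgeR adjusted p among these 5 genes was 0.899, for Xlr3b.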
